A study of Drosophila yakuba and Drosophila melanogaster with 20 samples.

Results

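Chromosome 4 is the smallest chromosome of Drosophila melanogaster, and the records analysed here are those that lie on it. They were taken by chromosome name, with no measured value entering the choice: every chromosome 4 line in the base-difference tables of 4 mock-treated head libraries, together with the chromosome 4 entries of the 2 lists of editing sites. This gave 62991 records of 1842696 in all, made up of 4231, 6731, 15411 and 36551 table lines, 32 listed sites of D. melanogaster and 35 of D. yakuba. The 4 libraries came from adult heads of the D. melanogaster strain y; cn, bw, sp, with about 50 heads pooled per sample. All 4 carried the mock treatment, that is, incubation without acrylonitrile. They were sequenced as 50-nt HiSeq reads (replicates 1 and 2) or 86-nt NextSeq reads (replicates 1 and 2). ICE libraries, in which 1.6 M acrylonitrile blocks reverse transcription at inosine, and the libraries of the 6 D. yakuba strains had no difference tables. Neither had 2 further D. melanogaster mock libraries. All of these could enter only through the site lists, which name no sample. The labels do not state that replicates came from separate collections of flies, so p-values measure only the spread between these libraries. The series' design text can also be read as 2 added libraries that were each run on both instruments. If so, the HiSeq and NextSeq tables of a number are not independent, n = 4 below stands for 2 libraries, and no exact two-sided sign-flip p below 0.5 would be possible. No expression values were analysed, so the head label was not checked against marker genes.

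Adenosine deaminases acting on RNA (ADARs) bind double-stranded RNA and convert adenosine to inosine, which is copied as guanosine. An edited base is therefore read as A-to-G when the transcript runs along the forward strand of the genome and as T-to-C when it runs along the reverse strand. Flies carry a single Adar gene, known for editing transcripts of the nervous system. Chromosome 4, the dot chromosome, is packaged largely as heterochromatin yet carries expressed genes, and it is bound along its length by a protein of its own.

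The following windows show the reference bases that the library tables reveal around 2 clusters of listed sites and around the 2 runs with the most recurrent positions outside the list (dm3, forward strand, 5′ to 3′). Capitals mark A or T bases that are listed or that showed A-to-G (first window) or T-to-C (the others) in 2 or more tables. Lower-case a, c, g and t are other known reference bases, and n is a base that no table shows.
Listed cluster, chr4:584006-584041: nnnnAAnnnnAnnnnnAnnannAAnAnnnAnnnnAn
Listed cluster, chr4:1062852-1062888: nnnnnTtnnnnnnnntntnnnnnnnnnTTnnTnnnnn
Unlisted run, chr4:1063593-1063632: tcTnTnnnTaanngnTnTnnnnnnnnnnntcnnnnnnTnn
Unlisted run, chr4:497289-497314: nnTnnnnnTTnTnnnnnnnnnnnTnt
Only 10 of 36, 7 of 37, 13 of 40 and 6 of 26 bases of these windows are known, so they place the changed bases but do not give the sequence between them. In the first window 9 of the 10 known bases were A with A-to-G in 2 or more tables. A base is known only where a difference was listed, and this window was placed around listed A sites. The count was therefore largely set by the choice of window, and no conclusion is drawn from it.

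The 32 listed sites of D. melanogaster made up 2.58% of its list of 1238 (exact 95% binomial interval 1.77 to 3.63, counting error only) and ran from position 120661 to 1268833 of dm3. Relative to the span between the first and last difference in the tables, 1325 kb, this was 24.1 sites per Mb. The X chromosome held 18.4 sites per Mb, and 2L, 3L and 3R held 7.53, 8.31 and 7.99. The value for chromosome 4 was thus above that of each of the 4 arms, with 1 list and no replicate to test it. Chromosome 4 held a larger share of all base differences, 3.33% to 3.65% in the 4 libraries, than its 2.58% of the list. Relative to base differences, its listed sites were thus not in excess.

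Joined at gaps of at most 1000 bp, the sites formed 6 clusters of 2 or more sites and 10 single sites. The largest cluster, from 584007 to 584040, held 6 sites in 34 bp. A cluster of 5 sites reached from 1061062 to 1061783, and 1074 bp further on lay 4 sites from 1062857 to 1062883. The remaining clusters held 3 sites from 707599 to 707610, 2 sites at 122953 and 122975, and 2 sites at 899596 and 900547. The single sites lay at 120661, 579338, 708788, 768364, 887592, 895009, 917851, 1072958, 1153572 and 1268833. Between the sites at 122975 and 579338 there was no listed site for 456363 bp. Genes at these positions were not annotated here, since no dm3 annotation was used.

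D. yakuba listed a similar number of chromosome 4 sites. Its 35 sites were 2.80% of 1250 (1.96 to 3.87), from 96532 to 1370909 of droYak2. They formed 9 clusters of 2 or more sites at the same gap, but the largest held 3 sites, from 990176 to 991001, against 6 in D. melanogaster. The other 8 were pairs: 183936 and 183941, 329415 and 329416, 348589 and 348602, 966465 and 966468, 968414 and 968423, 1247644 and 1247645, 1263026 and 1263039, and 1370898 and 1370909. Spacing within these pairs was from 1 to 13 bp. At gaps of up to 10000 bp the largest D. yakuba group was 8 sites from 958023 to 977005, and the largest D. melanogaster group was 9.

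Sites with a listed neighbour within 10 bp were 14 of 32 in D. melanogaster (43.8%, 26.4 to 62.3) and 10 of 35 in D. yakuba (28.6%, 14.6 to 46.3). Within 100 bp the counts were 20 (62.5%, 43.7 to 78.9) and 18 (51.4%, 34.0 to 68.6). These intervals overlap widely, and with 1 list per species the difference was not tested. Within 10 bp the D. melanogaster arms gave 42.2% (2L), 37.3% (3L), 30.0% (3R) and 43.9% (X), and the D. yakuba arms gave 27.3%, 33.5%, 29.1% and 37.4%. The share on chromosome 4 was thus close to that of 2L and X in D. melanogaster, and the lower value in D. yakuba was found on every arm as well. Directly adjacent bases occurred 4 times in D. melanogaster and 2 times in D. yakuba. The median gap was 951 bp and 5462 bp. No chain of 3 or more sites spanning at least 20 bp had the same spacing in both species in either orientation. The search used gaps of at most 1000 bp, at which only the D. yakuba group from 990176 to 991001 had 3 sites. It could therefore hardly have found a shared chain, and no conclusion is drawn from it. The builds cannot be aligned here, so a shared site with different spacing would not be seen.

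The reference base divided chromosome 4 into 3 blocks. Among the 29 D. melanogaster sites seen in any library, A stood at 15 and T at 14 (A at 51.7%, 32.5 to 70.6). All 13 from 120661 to 768364 were A, all 14 from 887592 to 1072958 were T, and the 2 at 1153572 and 1268833 were A again. The listed change was therefore of the forward strand on the left, of the reverse strand over 185367 bp in the middle, and of the forward strand at the right end. Along the chromosome the base switched at 2 of 28 neighbouring pairs, while the arms switched at 22 of 153 (2L), 26 of 177 (3L), 45 of 193 (3R) and 45 of 363 (X). Every one of the 20 chromosome 4 pairs at most 10000 bp apart shared its base, as did 109 of 109 such pairs on 2L, 116 of 117 on 3L, 106 of 106 on 3R and 276 of 277 on X. For D. yakuba no tables were analysed, so its strands are unknown.

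Of the 32 sites, 29 showed A-to-G or T-to-C in at least 1 of the 4 mock libraries (90.6%, 75.0 to 98.0), against 87.6% for the whole list. The labels do not say whether these tables were used to make the list. All 4 libraries listed 13 (40.6%, 23.7 to 59.4), against 29.2% of the whole list, 3 libraries listed 10, and 2 libraries listed 6. None of the 32 was seen in 1 library alone (upper limit 10.9%), whereas 170 of 1012 sites on the arms were (16.8%, 14.5 to 19.2). The 3 sites never seen were 579338, 584007 and 917851. A missing site cannot be separated into unedited and uncovered, because the tables hold no read counts.

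**Figure D1:**
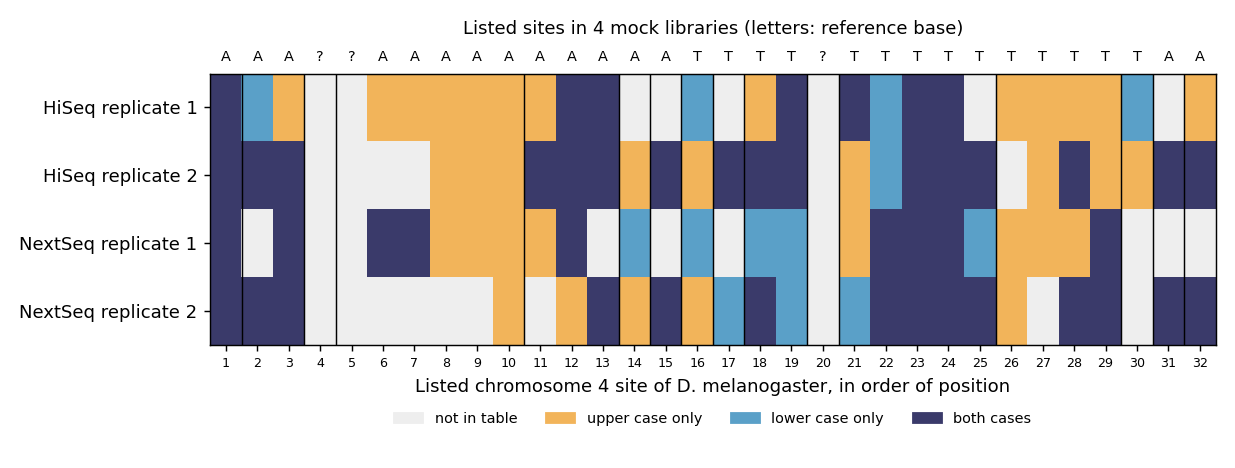
Each of the 32 listed chromosome 4 sites of D. melanogaster (columns, in order of position) in the 4 mock libraries (rows). Colour gives the letter case of the A-to-G or T-to-C entry, letters above give the reference base (? where no table shows it), and vertical lines separate clusters joined at gaps of at most 1000 bp. The A, T and A blocks and the 13 columns filled in all 4 rows can be read off.

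The libraries differed in which clusters they showed. HiSeq replicate 1 listed 24 sites (75.0%, 56.6 to 88.5), HiSeq replicate 2 listed 26 (81.2%, 63.6 to 92.8), and NextSeq replicates 1 and 2 listed 22 each (68.8%, 50.0 to 83.9). The 6-site cluster at 584007 was listed at 5 sites in both libraries of replicate 1, at 3 in HiSeq replicate 2 and at 1 in NextSeq replicate 2. Conversely, the single sites at 768364, 895009 and 1153572 appeared in both libraries of replicate 2 and in neither of replicate 1. The cluster at 1061062 was near complete everywhere, with 4 sites in HiSeq replicate 1 and 5 in each of the other libraries. Both sites of the 899596 cluster were listed in all 4.

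On 2L, 3L, 3R and X together the same libraries listed 45.7%, 77.4%, 40.8% and 73.0% of 1012 sites. Chromosome 4 was higher by 29.3 points in HiSeq replicate 1, by 27.9 in NextSeq replicate 1 and by 3.88 in HiSeq replicate 2, and it was lower in NextSeq replicate 2 (-4.27). The mean difference was 14.2 points ± 17.0 (SD, n = 4; exact two-sided sign-flip permutation test over libraries, p = 0.375, smallest possible 0.125), which is within the spread between libraries. The differences grouped by replicate number, with both values of number 1 above both of number 2. Without HiSeq replicate 1 the mean was 9.18 points.

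Read strand, taken from the letter case of the differing base, added little contrast. Both cases were present at 7 of 24 listed chromosome 4 sites in HiSeq replicate 1 (29.2%), 16 of 26 in HiSeq replicate 2 (61.5%), 9 of 22 in NextSeq replicate 1 (40.9%) and 14 of 22 in NextSeq replicate 2 (63.6%). The arms gave 38.7%, 57.9%, 38.3% and 59.9%. The mean difference of 0.11 points (exact sign-flip permutation p = 1.0, n = 4) changed sign when HiSeq replicate 2 (-1.08), NextSeq replicate 1 (-0.73) or NextSeq replicate 2 (-1.08) was left out. In the cluster at 584007 every entry of HiSeq replicates 1 and 2 and NextSeq replicate 2 was in upper case. At 120661, 1061780 and 1061781 both cases were seen in all 4 libraries.

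Among the 23 chromosome 4 sites listed in 3 or more libraries, the site at 887592 differed from the others in its surroundings. Its T-to-C entry was in lower case in both libraries of replicate 1 and in upper case in both of replicate 2. An A-to-G change lay 2 bp further along the forward strand, at 887594, and a C-to-A change 3 bp further, at 887595. Both carried exactly the same cases in the same 4 tables. Of 23 chromosome 4 sites listed in 3 or more libraries, 1 had such a companion of another kind within 5 bp with identical tables and cases, and on the arms 1 of 480 did. The companions were looked for after this site had been seen. Other changes at the listed positions themselves were rare: A-to-C at 584029 and A-to-T at 707610 in NextSeq replicate 1, and T-to-A at 899596 in NextSeq replicate 2, each in 1 table.

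Base differences of every origin were dense on chromosome 4. With each position and base counted once, it held 4177 differences in HiSeq replicate 1, 6624 in HiSeq replicate 2, 15304 in NextSeq replicate 1 and 36227 in NextSeq replicate 2. These were 3.15, 5.00, 11.5 and 27.3 per kb of span. The 4 arms together gave 0.915, 1.56, 3.36 and 8.67 per kb, so the ratios were 3.44, 3.21, 3.43 and 3.15. On the log2 scale the difference was 1.73 ± 0.07 (SD, n = 4), with chromosome 4 higher in 4 of 4 libraries (exact sign-flip permutation p = 0.125, the smallest possible). Against X, the densest arm, the ratios were still 2.86 to 2.96. For A-to-G and T-to-C alone they were 3.61 to 3.83. Density was compared only after the data had been examined. The density counts listed differences, not differences per read, and coverage was not measured.

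**Figure D2:**
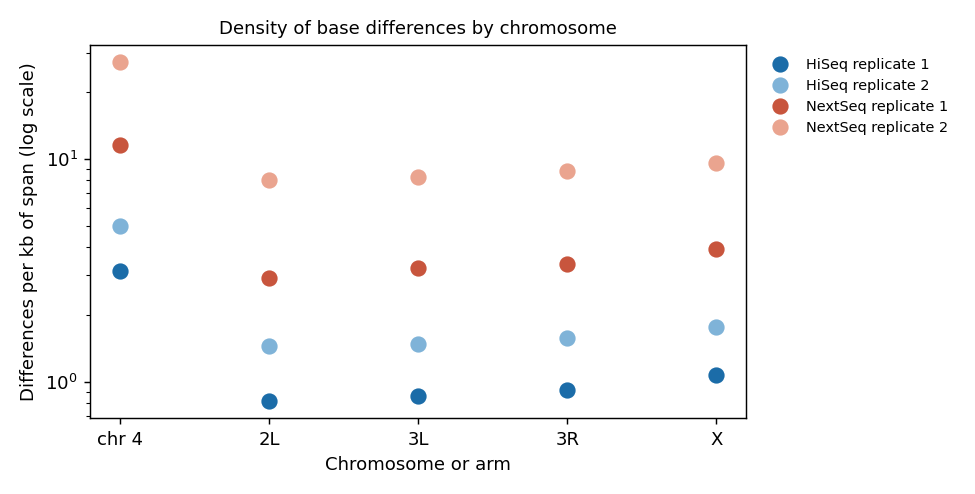
Base differences per kb of the span between the first and last difference (vertical axis, log scale) on chromosome 4 and on 2L, 3L, 3R and X (horizontal axis), with a point for each of the 4 libraries. In every library the chromosome 4 point lies above all 4 arms, at 3.15 to 3.44 times the pooled arms.

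The share of differences that fell on chromosome 4 was alike on both instruments. In replicate 1 it was 3.63% by HiSeq and 3.65% by NextSeq, and in replicate 2 it was 3.36% and 3.33%. NextSeq minus HiSeq was -0.0055 points (exact two-sided permutation test of 2 against 2 libraries, p = 1.0, smallest possible 0.33), well within the SDs of 0.189 and 0.227. The sign of so small a value is not stable: counting table lines gave 0.021 points. Among differences seen in both letter cases, however, it was 0.873 points (permutation p = 0.33).

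A-to-G and T-to-C took a slightly larger share of differences on chromosome 4 than on the arms. They were 926 differences in HiSeq replicate 1 (22.2%, 20.9 to 23.5), 1716 in HiSeq replicate 2 (25.9%, 24.9 to 27.0), 942 in NextSeq replicate 1 (6.16%, 5.78 to 6.55) and 2113 in NextSeq replicate 2 (5.83%, 5.59 to 6.08). The arms gave 20.2%, 21.7%, 5.85% and 4.86%. The excess was 1.94, 4.19, 0.30 and 0.97 points, a mean of 1.85 ± 1.70 (SD, n = 4), in the same direction in 4 of 4 libraries (exact sign-flip permutation p = 0.125, the smallest possible). HiSeq replicate 2 carried much of it, and without that library the mean was 1.07 points. Among differences seen in both cases the mean was 6.28 points, although there NextSeq replicate 2 went the other way, with 8.02% on chromosome 4 and 11.6% on the arms.

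Removing the listed sites left the excess at 1.87 points. Listed sites were few among these changes: 2.59%, 1.52%, 2.34% and 1.04% of such differences on chromosome 4 in the 4 libraries, against 2.55%, 2.36%, 2.14% and 1.79% on the arms (mean difference -0.34 points ± 0.53, SD, n = 4, exact sign-flip permutation p = 0.5). That difference was -0.17 points without HiSeq replicate 2, -0.21 without NextSeq replicate 2 and -0.52 without NextSeq replicate 1. A reference A or T stood at 55.1%, 56.8%, 74.2% and 71.2% of chromosome 4 differences, against 50.7%, 50.5%, 72.1% and 69.6% on the arms. These shares include A-to-G and T-to-C themselves, and the base composition of the chromosomes was not measured. When shares were taken among differences at reference A or T only, the excess was 0.27, 2.57, 0.17 and 1.21 points, with a mean of 1.06 ± 1.11 (SD, n = 4) and the same sign in 4 of 4 libraries (permutation p = 0.125). Without HiSeq replicate 2 it was 0.55 points. In the same way C-to-T and G-to-A, taken among differences at reference C or G, were 0.91 points ± 1.64 higher on chromosome 4, with 3 of 4 libraries in that direction (permutation p = 0.375). This value was 0.54 points without HiSeq replicate 1, 0.37 without HiSeq replicate 2 and 1.54 without NextSeq replicate 1.

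Of the 12 kinds of change, 4 were higher on chromosome 4 in all 4 libraries: A-to-G, T-to-C, A-to-T and T-to-A. The mean excess was 0.69, 1.15, 0.76 and 0.86 points. Without HiSeq replicate 2 it was 0.41 for A-to-G and 0.66 for T-to-C, and without NextSeq replicate 1 it was 0.48 for A-to-T. The kinds lower in all 4 libraries were the 6 that start from C or G, and C-to-A differed most: it was 8.71%, 7.43%, 10.5% and 11.98% on chromosome 4 against 10.7%, 9.59%, 11.6% and 12.8% on the arms, a mean of -1.51 points ± 0.66 (SD, n = 4). A-to-C and T-to-G had no common direction. None of the 12 passed the exact sign-flip permutation test after Benjamini-Hochberg adjustment (adjusted p = 0.15 for 10 kinds and 0.875 for 2), and none had an unadjusted p under 0.05, which 4 libraries cannot give.

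**Figure D3:**
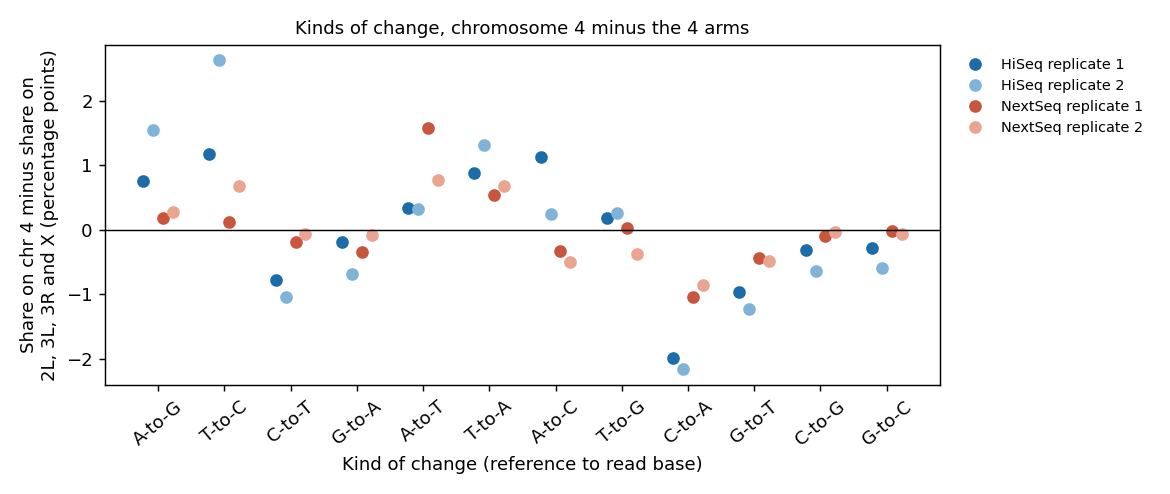
Share of each kind of change on chromosome 4 minus its share on 2L, 3L, 3R and X together (vertical axis, percentage points), with a point per library. All 4 points lie above 0 for A-to-G, T-to-C, A-to-T and T-to-A, and all 4 lie below 0 for the 6 kinds with reference C or G.

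The instruments differed in kinds of change on chromosome 4 as well. The mean share of T-to-C plus A-to-G was 24.0% ± 2.64 (SD, n = 2) in the HiSeq libraries, whereas in the NextSeq libraries it was 5.99% ± 0.23 (SD, n = 2). NextSeq minus HiSeq was -18.0 points (two-sided exact permutation of 2 against 2 libraries, p = 0.33, the smallest possible). Their counts did not fall with the share: 926 and 1716 by HiSeq stood beside 942 and 2113 by NextSeq. T-to-A plus A-to-T made up 19.3% and 19.2% of chromosome 4 differences on HiSeq and 55.2% and 51.2% on NextSeq. Read length differs with instrument and cannot be told apart from it.

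Outside the list, chromosome 4 held 5117 T-to-C and A-to-G differences. Of these 416 were in 2 or more tables (8.13%, 7.40 to 8.91), 208 of each kind, against 7.16% on the arms. C-to-T and G-to-A recurred at 305 of 3435 (8.88%, 7.95 to 9.88), and A-to-T with T-to-A at 1164 of 27841 (4.18%). Recurrence of A-to-G and T-to-C was thus no higher than that of C-to-T and G-to-A on this chromosome.

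Most recurrent A-to-G and T-to-C positions were shared by the HiSeq and NextSeq tables of the same replicate number and by no other. This held for 295 of the 416 (70.9%), while 121 (29.1%) involved both numbers. C-to-T and G-to-A were alike, at 209 of 305 (68.5%), but A-to-T and T-to-A were not, at 270 of 1164 (23.2%). The arms gave 69.6%, 66.4% and 22.9% for the same classes. Where exactly the HiSeq and NextSeq tables of replicate 1 listed a T-to-C or A-to-G position on chromosome 4, each in 1 letter case, the case was the same at 107 of 110 positions (97.3%). For replicate 2 it was the same at 160 of 168 (95.2%). Tables of different numbers shared far fewer such positions. Their case was the same at 16 of 19 (84.2%, both HiSeq tables), 19 of 20 (95.0%, both NextSeq tables), 7 of 8 (87.5%, HiSeq replicate 2 with NextSeq replicate 1) and 10 of 16 (62.5%, HiSeq replicate 1 with NextSeq replicate 2). The labels do not state whether a number marks the same RNA or library on both instruments, so recurrence within a number cannot be told apart from repeated sequencing of the same molecules.

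Recurrent unlisted positions formed runs, defined as 2 or more positions of the same kind at gaps of at most 100 bp. On chromosome 4 there were 57 such runs, 25 of A-to-G and 32 of T-to-C, with 143 positions. These were 34.4% of the recurrent positions (29.8 to 39.2), against 29.1% on the arms. Positions enter a run only with a neighbour and are not independent, so this interval and those for other kinds below are too narrow. The difference from the arms was not tested. The median run was 16 bp long and the longest 123 bp. A pair made up 39 of the runs, and 18 had 3 or more positions. C-to-T and G-to-A formed 27 runs with 19.02% of their recurrent positions (14.8 to 23.9), against 18.6% on the arms. Of these runs, 4 had 3 or more positions. A-to-T and T-to-A, the kinds in excess on NextSeq, formed 184 runs with 35.5%, against 39.5% on the arms. Among these 184, 38 had 3 or more positions. C-to-G with G-to-C formed no runs from 94 positions (upper limit 3.85%), while on the arms 219 of 2122 lay in runs (10.3%). Runs of any kind become more frequent as recurrent positions lie closer together, which differs between kinds and chromosomes.

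**Figure D4:**
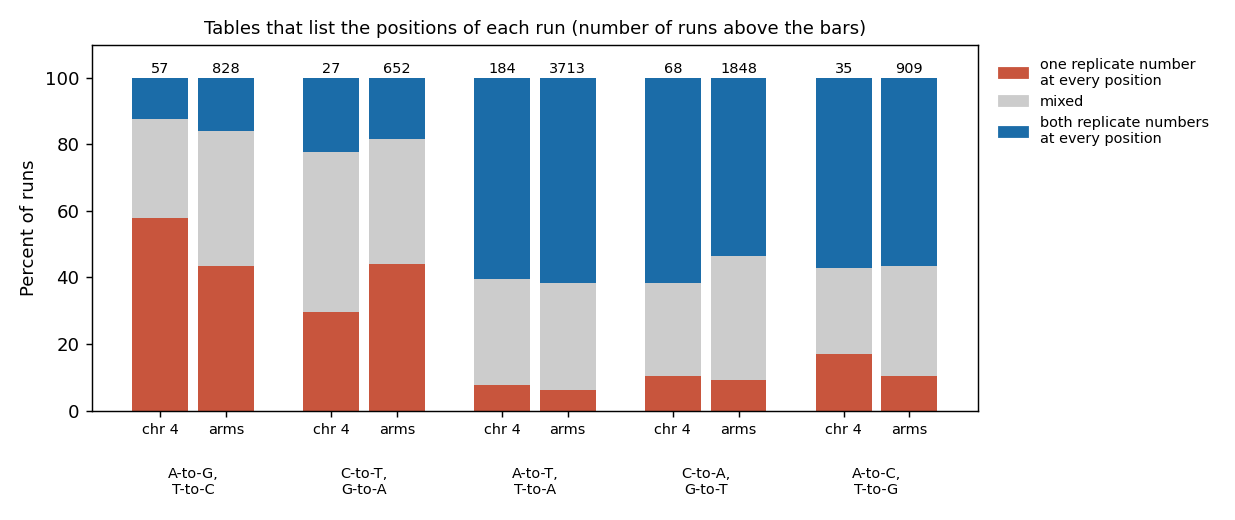
Runs of recurrent unlisted positions by kind of change (groups) on chromosome 4 and on 2L, 3L, 3R and X together (bars), in percent of runs, with the number of runs above each bar. Colours separate runs in which every position was shared only within a replicate number, runs in which every position involved both numbers, and mixed runs. For A-to-G and T-to-C on chromosome 4 the within-number part is 33 of 57 runs, and for A-to-T and T-to-A it is 14 of 184.

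In 33 of the 57 runs every position came from the HiSeq and NextSeq tables of a single number, and in 4 of these the number differed between positions. Another 7 runs had both numbers at every position, and 17 were mixed. Of the 33, 26 had a single letter case throughout. On the arms 361 of 828 A-to-G and T-to-C runs (43.6%) were within a number, beside 57.9% on chromosome 4. The count of runs rested on each library: it was 36 without HiSeq replicate 1, 20 without HiSeq replicate 2, 33 without NextSeq replicate 1 and 24 without NextSeq replicate 2. With at least 1 table of each number required at every position, 10 runs were found on chromosome 4 and 225 on the arms. They held 30 of the 121 positions that involved both numbers on chromosome 4 (24.8%) and 577 of 2201 on the arms (26.2%). On chromosome 4 the same rule gave 6 runs of C-to-T and G-to-A (12.5% of such positions) and 121 of A-to-T and T-to-A (30.1%). C-to-A with G-to-T gave 43 (21.3%), and A-to-C with T-to-G gave 21 (15.2%).

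The run with the most positions, 36 bp long, lay 712 bp beyond the last site of the cluster at 1062883. It held 6 T-to-C positions, 1063595, 1063597, 1063601, 1063608, 1063610 and 1063630, and is the third window printed above. HiSeq replicate 1 listed 6 of them, NextSeq replicate 1 listed 5, HiSeq replicate 2 listed 3 and NextSeq replicate 2 listed 2. At 1063601 the change was present in both letter cases in all 4 tables, a pattern of 3 listed chromosome 4 sites and 5 unlisted positions of any kind, this one included. The run carried the same T as the listed clusters before it.

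The run with the next most positions, from 497291 to 497312, lay 82026 bp from the nearest listed site. It held 5 T-to-C positions, all in lower case in every table that listed them, and 3 of them (497291, 497297 and 497298) were in all 4 tables. Its reference base was T, whereas the 13 listed sites of known base from 120661 to 768364 were all A. A pair of neighbouring positions in all 4 tables was found in 1 further run, at 361824 and 361826, which is also T-to-C and lies 217512 bp from a listed site.

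Runs close to listed sites followed the strand of those sites. Of the 9 runs within 1000 bp of a listed site, 8 had the base of the nearest site and 1 did not (A-to-G at 900952 and 900953). Those at 584016 to 584035, inside the 6-site cluster, added 4 A-to-G positions, of which 584031 was in all 4 tables in upper case. A further 4 from 708722 to 708844 surrounded the site at 708788. Beyond 1000 bp, 21 runs had the base of the nearest site and 27 the other base. The 37 runs more than 10000 bp from any listed site included 4 T-to-C positions at 352925 to 352939 and 4 at 358781 to 358800. The latter were listed only by the replicate 2 tables, in lower case, and a run of 4 A-to-G positions from 592648 to 592674 only by those of replicate 1, also in lower case. A run of 4 A-to-G positions from 1155174 to 1155256 lay 1602 bp from a listed site of the same base. Runs of 3 T-to-C positions at 138505 to 138518 and at 211019 to 211053 were listed only by the replicate 2 tables, in upper case. Of the 57 runs, 45 enclosed no recurrent change of any other kind. With a median length of 16 bp, most runs leave little room for one. The same count was not made for other kinds or the arms, so it has no background.

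Counted singly, recurrent changes within 10 bp of listed sites were mostly of the listed kind. At 1 to 10 bp from a seen chromosome 4 site, 9 of 11 recurrent unlisted changes were A-to-G read along its strand (81.8%). Of these 9, 4 formed the run at 584016 to 584035 inside a single cluster, so they are not independent. Another 1 of the 11 was A-to-G on the opposite strand, the change at 887594 described above. At 11 to 50 bp the counts were 8 and 0 of 19, and at 51 to 100 bp 3 and 0 of 8. The reverse change, G-to-A on the strand of the site, was not among the recurrent changes in any of these 3 ranges. From 1001 to 10000 bp the same strand gave 42 of 550 (7.64%) and the opposite strand 24. The arms had 74.3% at 1 to 10 bp and 7.92% between 1001 and 10000 bp, so the fall with distance was found there too.

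**Figure D5:**
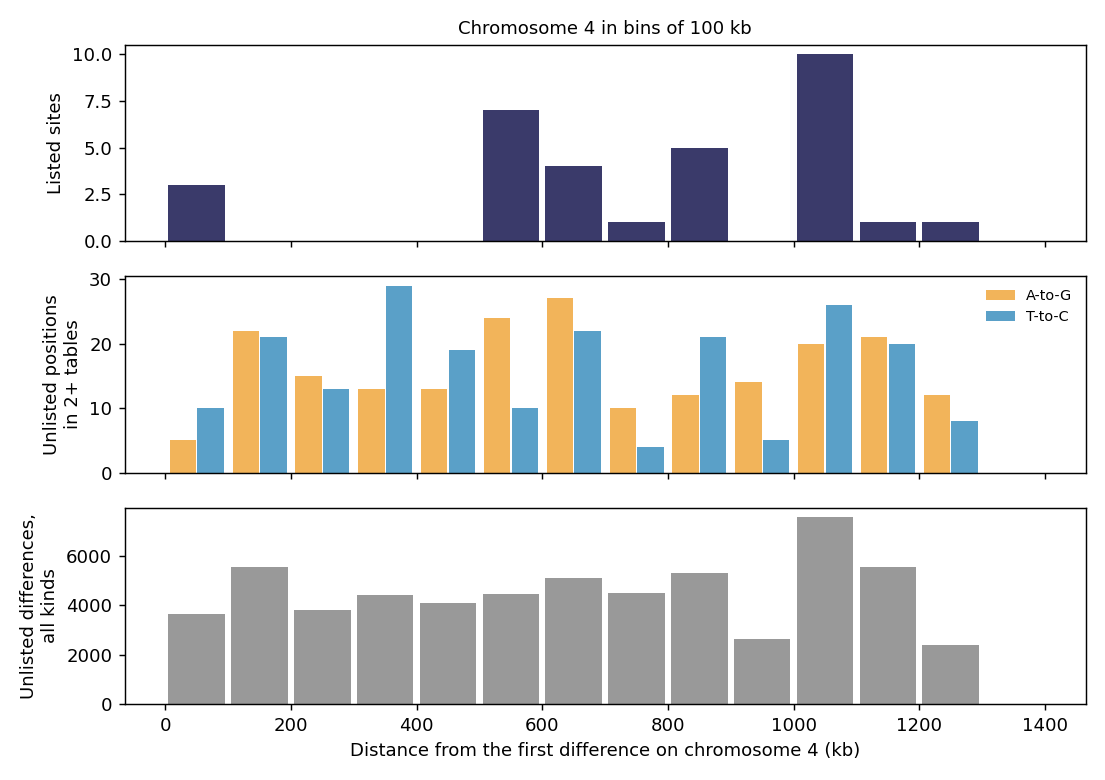
Chromosome 4 in bins of 100 kb, by distance from its first difference (horizontal axis): listed sites (top), T-to-C and A-to-G positions outside the list in 2 or more tables (middle), and unlisted differences of all kinds (bottom). Recurrent positions of both kinds are present in the 4 bins without listed sites between 100 and 500 kb, and the bin at 1000 to 1100 kb has the most listed sites (10) and the most differences (7550).

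Recurrent A-to-G and T-to-C positions were also found in bins without listed sites. They were far more numerous than listed sites, 416 against 32, and evenness of spread was not measured. The 4 bins of 100 kb between 100 and 500 kb from the first difference held no listed site. They had 22, 15, 13 and 13 recurrent A-to-G and 21, 13, 29 and 19 recurrent T-to-C positions. These stood among 309, 204, 251 and 206 recurrent unlisted changes of all kinds. The same bins had 7, 0, 7 and 5 runs. The bin with 10 listed sites, at 1000 to 1100 kb, had 20 and 26 such positions among 461 recurrent changes and 7550 unlisted differences. Shares were not tested between bins. In the bin at 500 to 600 kb, which holds the 6-site cluster, A-to-G outnumbered T-to-C at 24 to 10, and at 300 to 400 kb T-to-C outnumbered A-to-G at 29 to 13.

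In all 4 tables together 67 differences on chromosome 4 recurred. The 13 listed sites among them were 4 A-to-G and 9 T-to-C. The other 54 were 12 A-to-G or T-to-C, 10 C-to-T or G-to-A, and 32 transversions, chiefly A-to-T and C-to-A with 10 each. Thus 13 of the 25 A-to-G and T-to-C changes present in every table were on the site list (52.0%, 31.3 to 72.2), and on the arms 307 of 541 were (56.7%). Outside the runs, unlisted A-to-G was in all 4 tables at 299602, where A-to-T was present in the same tables and the same case, at 640756, and at 887594. Changes of other kinds in both cases of all 4 tables were C-to-T at 482157 and 566002, C-to-G at 706771 and C-to-A at 1210993.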

How the data were processed

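Total RNA from fly heads was selected with oligo(dT) and fragmented, as the labels' protocols describe. The submitters mapped reads to dm3 or to WUGSC 7.1 (droYak2) with TopHat 2.0.6 and Bowtie 2.0.2, with 4 mismatches allowed and 1 alignment kept, and unmapped reads went to bsmap 2.74 with 3 mismatches, per the labels' protocols. SAMtools 0.1.19 also stands in the submitters' processing notes. The rules for calling differences and listing sites are not given in the sources used here. The mismatch limit can lose reads with many edited bases. The deposited tables give position, reference base and differing base, with no counts, so depth is unknown; the deposited lists give positions alone. Letter case is read here as read strand, which the files do not state.

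Each position and base was counted once. Named items were all clusters at gaps of at most 1000 bp, single sites, and the 10 runs with the most positions; others named were chosen after their values were seen. Members, lists and tests were chosen with earlier results of these data known. Chromosome 4 was compared with 2L, 3L, 3R and X within each library by exact sign-flip permutation, two-sided. Intervals are exact (Clopper-Pearson) at 95%. The run search was checked on simulated data, where 20 of 20 planted runs were recovered. The simulated background differences each stood in a single table and away from the planted runs. The check therefore covers the code only and gives no rate at which runs form without planting. Python 3.11.15, numpy 2.4.6, scipy 1.17.1 and matplotlib 3.10.9 were used. Alternatives were left-out libraries, single arms, table lines, both letter cases, gaps, and table minimums.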

Additional observations from a re-analysis of the deposited data

Results flagged for a closer look

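The share of A-to-C on chromosome 4 minus that on 2L, 3L, 3R and X was above 0 in both HiSeq libraries (1.13 and 0.24 points) and below 0 in both NextSeq libraries (-0.33 and -0.49 points). The instruments' means differed by -1.09 points (NextSeq minus HiSeq). This was picked up because every library of an instrument moved the same way and those of the other moved the opposite way; the difference was not tested.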

How the results depend on the processing

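The excess of T-to-C plus A-to-G on chromosome 4 and its higher density of differences kept their sign under every alternative run on them. Leaving out libraries moved the excess between 1.07 and 2.37 points and the difference in detection of listed sites between 9.18 and 20.4 points. With differences in both letter cases only, chromosome 4 minus the arms turned sign for C-to-T (0.510 points), T-to-G (-0.415), C-to-G (1.04) and G-to-C (0.0091). Single arms turned it for A-to-C (-0.0924 against 3R), for T-to-G (-0.0115 against 2L and -0.195 against 3L) and for both read strands at listed sites (-7.54 against 2L). The share of all differences on chromosome 4, NextSeq minus HiSeq, became 0.021 points over table lines and 0.873 over differences in both cases. Left-out libraries gave -0.192 to 0.347 points for A-to-C, -0.0499 to 0.162 for T-to-G, -1.08 to 3.34 for both read strands and -0.166 to 0.155 for the share on chromosome 4. The cause of these turns was not tested. The 57 runs became 20 to 36 with a library left out, 18 with 3 or more positions required, 10 with a table of each replicate number, 7 with 3 or more tables and 2 with all 4. The table minimums give fewer by construction. An alternative added after the data were seen kept only positions shared within a single number before runs were formed, and gave 36. It also takes runs out of mixed ones, so it differs from the 33 of the 57 counted above. Gaps of 50 and 500 bp gave 52 and 79 runs.

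With the replicate number as a block (replicate block), NextSeq minus HiSeq was -18.0 points for T-to-C plus A-to-G on chromosome 4 (exact permutation p = 0.5) and -0.0055 points for the share of all differences there (exact permutation p = 1.0), and no call changed. The labels do not say that equal numbers pair samples, but the design text leaves it possible that they mark the same library. Depth is unknown, since the tables hold no read counts, and 4 libraries cannot give an exact p under 0.05.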
